A study of Mus musculus with 20 samples.

Results

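Tpm2 and Actn3 are genes of the skeletal muscle sarcomere, and their RNA was compared here between brown adipose tissue of 2 mouse lines. The members are all clones that the array annotation pairs with either gene, 3 clones of 15360 on 2 designs of spotted cDNA array, or 2 genes of the 6970 that were named. The first design held 1 clone of Tpm2 and 1 of Actn3, and the second held another clone of Tpm2. Both genes were chosen by their brown adipose log ratios on these same arrays, so those values are given below as a description, with no test. The choice was taken to rest on brown adipose tissue and not on liver, and only liver values were tested.

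Total RNA came from the Fob3b line, which carries lean-line alleles at the Fob3b obesity locus in the F-line background, and from the F line, a line selected for fatness. The sources used here state no age, sex or diet, and no number of animals per pool. Each line and tissue was represented by RNA pools 1 and 2, and the Fob3b pool was hybridised against the F pool of the same number in both dye orientations. On the first design this gave 4 arrays of brown adipose tissue and 4 of liver, beside 2 liver arrays on which both dyes carried the same pool. For brown adipose tissue the second design had 2 arrays, from pool pair 1 alone, and for liver it had 4. Another 2 liver arrays set Fob3b and F pools of unlike number against each other, and 2 more compared the pools of a single line. The description of both brown adipose arrays of the second design names the F line on either side, while their channel labels name Fob3b and F; the channel labels were followed. The description of the Fob3b pool's array against itself is likewise at odds with its channels.

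Skeletal muscle contracts through sarcomeres, in which myosin thick filaments pull on actin thin filaments that are anchored at the Z discs. Tpm2 encodes beta-tropomyosin, a coiled coil that lies along the thin filament and, with the troponins, gates the access of myosin to actin. The gene also gives rise to tropomyosin isoforms of smooth muscle and other cells. Actn3 encodes alpha-actinin-3, which crosslinks actin filaments at the Z disc of fast fibres. Brown adipocytes burn fuel for heat and build no sarcomeres, and the interscapular depot lies against the muscles of the back.

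The values are log ratios of the dyes for each spot, read as log2, and were centred here on the median clone of each array. Which dye forms the numerator is not stated. Taken as red over green, a positive value means more RNA in the Fob3b line; taken as green over red it means more in the F line, and every sign below turns. A ratio gives no level of a gene, and no intensities accompany it, so whether a clone stood above background in a tissue could not be checked. The SD over clones of an array was 0.318 to 0.631 for the first design and 0.155 to 0.302 for the second. The spots of a clone correlated at 0.760 to 0.932 and at 0.636 to 0.865. The number of pool pairs, 2 per tissue at most, limits the precision, and nothing says that the pools are independent beyond their labels.

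Both genes lay on the negative side in brown adipose tissue with the first design. For Tpm2, the thin-filament tropomyosin, pool pair 1 gave -0.87 with Fob3b in red and -0.91 with Fob3b in green, and pool pair 2 gave -0.72 and 0.20 in the same order. The arrays of pool pair 1 thus lay close together, while those of pool pair 2 fell on opposite sides of 0. The pool pairs had -0.89 and -0.26, a mean of -0.58 ± 0.44 (SD, n = 2 pool pairs), which is a 1.49-fold difference. Of the 7680 clones of this design, 3 had a lower mean.

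Actn3, the Z-disc crosslinker of fast fibres, gave -0.31 with Fob3b in red and -0.83 with Fob3b in green for pool pair 1, and -0.59 and -0.14 for pool pair 2. All 4 arrays were negative, although the dye orientations of a pool pair lay well apart. The pool pairs had -0.57 and -0.37, a mean of -0.47 ± 0.15 (SD, n = 2 pool pairs), or a 1.38-fold difference, and 14 clones had a lower mean. Actn3 was 1 of 236 clones (3.07%) that were negative on all 4 arrays, and Tpm2 was not among them. The share is a background for a choice made on these values and nothing is read from it. With no centring of the arrays Tpm2 had a mean of -0.31 and Actn3 of -0.20.

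**Figure D1:**
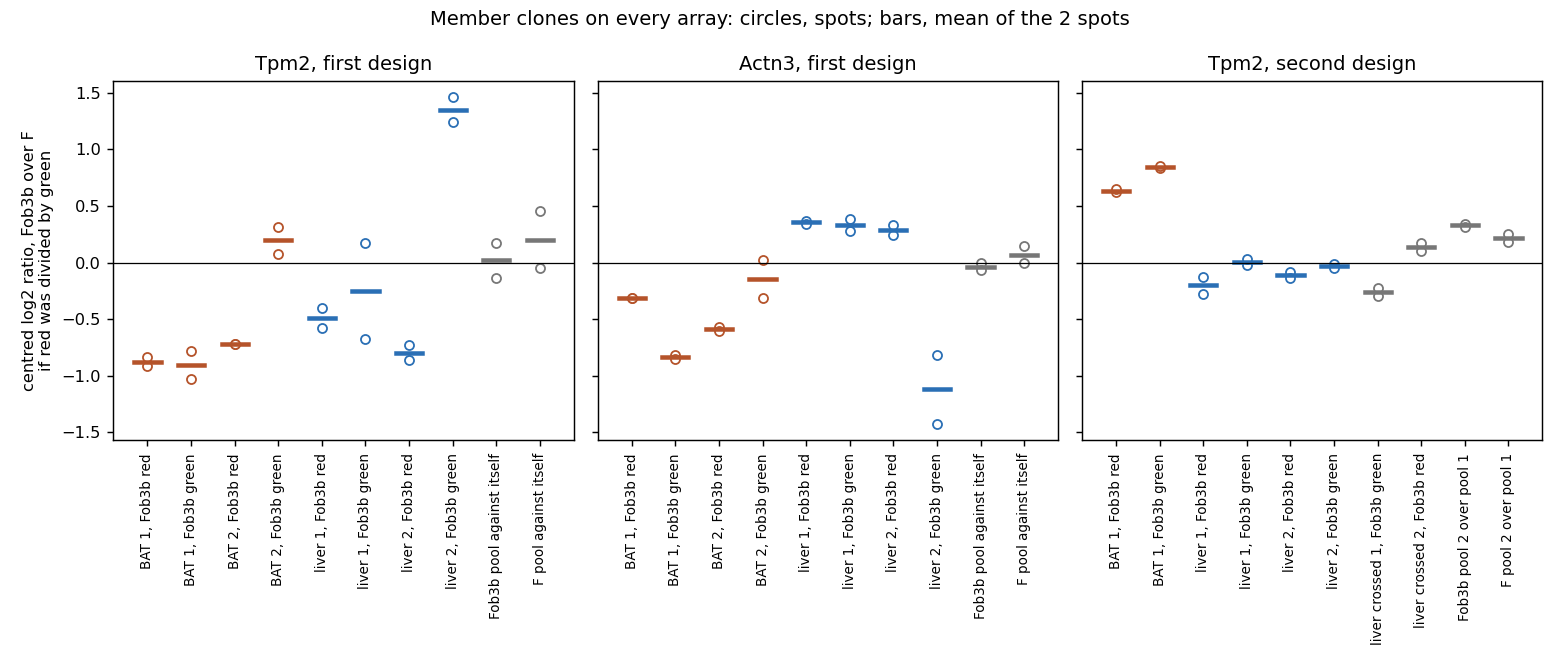
Centred log2 ratio (vertical axis) of each member clone on every array of its design. Circles are the 2 spots and bars their mean, in brown for brown adipose tissue (BAT) by pool pair and dye of the Fob3b line, in blue for liver and in grey for the other liver arrays, of which those within a line stand as deposited. In brown adipose tissue Tpm2 lay at -0.58 with the first design and at 0.74 with the second, with Actn3 at -0.47.

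The Tpm2 clone of the second design lay on the positive side in brown adipose tissue. It had 0.64 with Fob3b in red and 0.85 with Fob3b in green, a mean of 0.74 or a 1.67-fold difference for pool pair 1, which has no replicate here. Of the 7680 clones, 20 stood higher, and with no centring the mean was 0.38. RNA labelled as the same pool pair therefore gave -0.89 with the first-design clone and 0.74 with the second-design clone. In pool pair 1 the first-design clone was 1 of 41 (0.534%) past 1.5-fold on the negative side, and the second-design clone 1 of 48 (0.625%) past 1.5-fold on the positive side. Whether the clones read the same transcripts of Tpm2 was not tested, and an exchange of the channel labels on the second-design arrays, whose description is at odds with them, would turn the sign there alone.

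The spots of a clone lay closer together than the clones of Tpm2 did in brown adipose tissue. There, the spots of the second-design Tpm2 clone were 0.62 and 0.65 with Fob3b in red, and 0.84 and 0.86 with Fob3b in green. For the first-design clone in pool pair 1 they were -0.91 and -0.84 with Fob3b in red and -1.03 and -0.78 with Fob3b in green. The spots of Actn3 differed by at most 0.34 on a brown adipose array, in pool pair 2 with Fob3b in green, where they were 0.03 and -0.31. Over all 10 arrays of a design the median difference between spots was 0.23 for the first-design Tpm2 clone, 0.08 for Actn3 and 0.06 for the second-design Tpm2 clone.

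**Figure D2:**
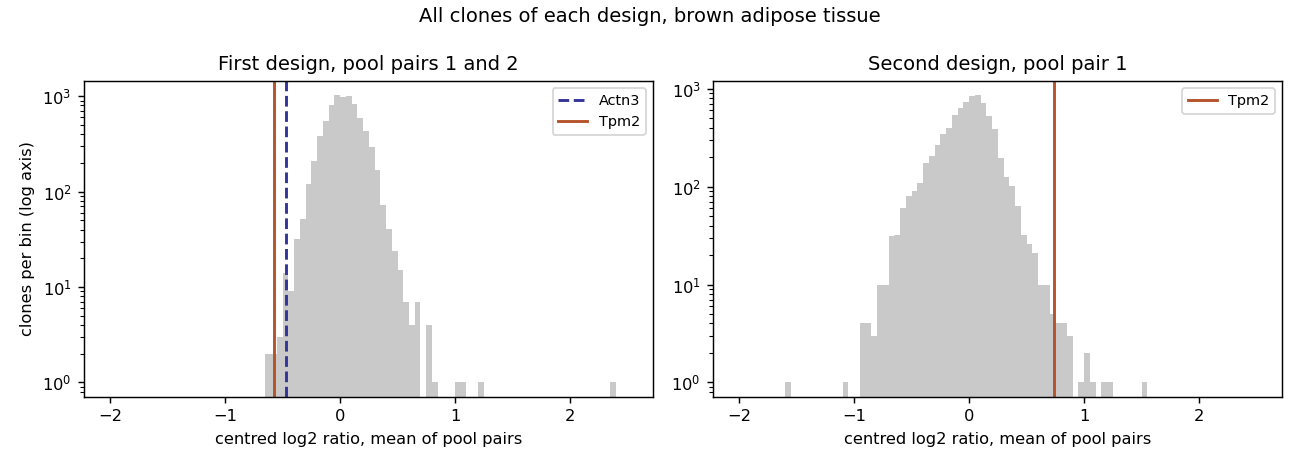
Number of clones (vertical axis, log scale) by centred log2 ratio in brown adipose tissue, for all 7680 clones of each design, in bins of equal width. The solid line marks Tpm2 and the dashed line Actn3: both stood in the lower tail on the first design, with 3 and 14 clones below them, and Tpm2 in the upper tail on the second, with 20 clones above it.

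Printing position was set beside these values, since the medians of the printing blocks of 160 clones spread from -1.18 to 0.56 over the centred first-design brown adipose arrays, before any ratio was turned by label. The median of the Tpm2 block, block 41, lay there at -0.28, -0.09, 0.09 and 0.05 in the order of arrays given above, and that of the Actn3 block, block 15, at 0.26, -0.20, 0.01 and 0.00. With each block centred, Actn3 had -0.57 and -0.63 in pool pair 1 and -0.60 and -0.15 in pool pair 2. Its orientations drew together in pool pair 1, while those of Tpm2 moved apart there, to -0.59 and -0.82. In pool pair 2 Tpm2 had -0.81 and 0.15. The mean of Actn3 became -0.49 and that of Tpm2 -0.52, and on the second design Tpm2 became 0.77. Each member was the farthest of the 160 clones of its block on its own side, with no clone beyond it. The members were chosen on these values, so nothing is read from that rank. The neighbouring clones within the block had -0.16 and -0.03 beside Tpm2 and -0.06 and 0.06 beside Actn3 on the first design, and 0.15 and 0.04 beside Tpm2 on the second.

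**Figure D3:**
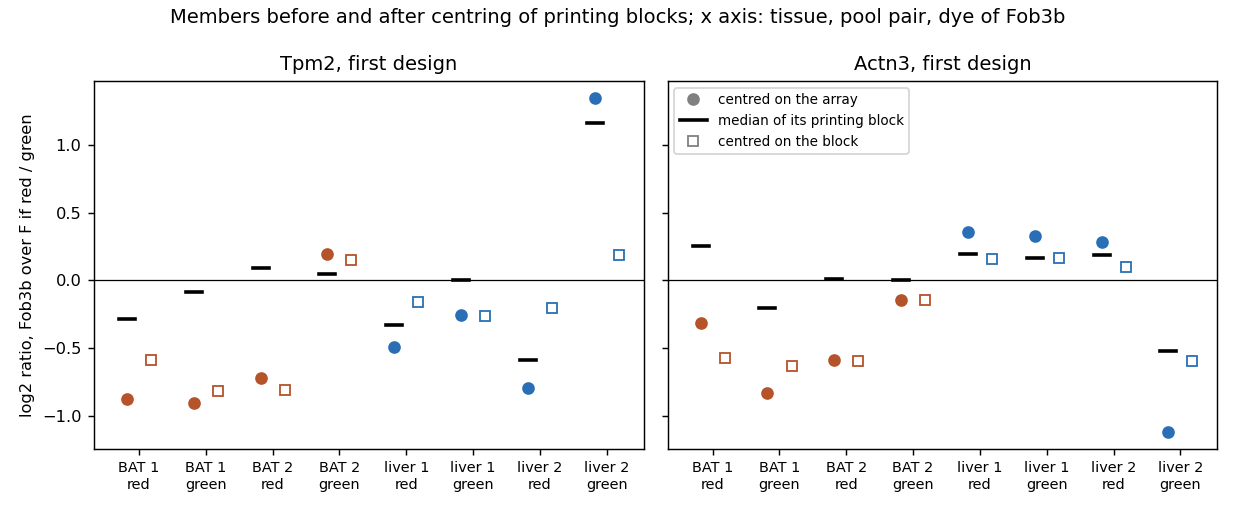
First-design log2 ratios (vertical axis) of Tpm2 and Actn3 by tissue, pool pair and dye of the Fob3b line. Filled circles are centred on the array, black bars are the median of the clone's printing block and open squares are centred on that block. The brown adipose squares stay negative on 3 of 4 arrays for Tpm2 and on 4 of 4 for Actn3, while the 2 liver extremes, 1.35 for Tpm2 and -1.12 for Actn3, lie on arrays whose blocks stood at 1.16 and -0.52.

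In liver, neither gene passed the test of a difference between the lines. For Tpm2 on the first design, pool pair 1 gave -0.49 with Fob3b in red and -0.26 with Fob3b in green, and pool pair 2 gave -0.80 and 1.35. Actn3 gave 0.36 and 0.33 for pool pair 1 and 0.29 and -1.12 for pool pair 2. For both genes the pool pairs took opposite sides, with -0.37 and 0.28 for Tpm2 and 0.34 and -0.42 for Actn3. With each printing block centred, the pool pairs of Tpm2 were on the same side, at -0.21 and -0.01. Those of Actn3 stayed apart, at 0.16 and -0.25. The limma estimate was -0.05 for Tpm2 (SE 0.23, 95% interval -0.56 to 0.46, adjusted p 1.0, n = 2 pool pairs). For Actn3 it was -0.04 (SE 0.22, 95% interval -0.53 to 0.45, limma adjusted p 1.0, n = 2 pool pairs). None of the 7680 clones (0%) passed an adjusted p under 0.05 in that limma fit, and 253 (3.29%) had an unadjusted p under 0.05, without either member. The fit shared its spread between the tissues, so the brown adipose values that chose the members entered these SEs. With liver fitted alone the estimates were the same, with an SE of 0.25 for Tpm2 and 0.26 for Actn3.

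Liver values of the second-design Tpm2 clone were closer to 0. They were -0.20 with Fob3b in red and 0.01 with Fob3b in green for pool pair 1, and -0.11 and -0.03 for pool pair 2. The pool pairs had -0.10 and -0.07, and the limma estimate was -0.08 (SE 0.08, 95% interval -0.27 to 0.10, adjusted p 0.830, n = 2 pool pairs). In that fit 25 clones (0.326%) passed an adjusted p under 0.05 and 758 (9.87%) an unadjusted p under 0.05, and Tpm2 was in neither count.

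The remaining liver arrays held the same pool in both dyes, the pools of a single line, or crossed pools of both lines. With the same Fob3b pool in both dyes, Tpm2 on the first design had 0.02 and Actn3 -0.04, and with the same F pool in both they had 0.20 and 0.07. The second-design Tpm2 clone had 0.33 in the Fob3b line and 0.22 in the F line for pool 2 over pool 1, if red was divided by green. The crossed-pool arrays read 0.26 with Fob3b pool 1 in green and F pool 2 in red, and 0.14 with F pool 1 in green and Fob3b pool 2 in red, as red over green. On all 4 of these arrays pool 2 was in red. The 4 direct liver arrays, with the same pool number in both dyes, ran from -0.20 to 0.03 as red over green. Averaged over each dye swap, which cancels the line contrast, red over green was -0.10 for pool pair 1 and -0.04 for pool pair 2.

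Few other muscle genes could be read beside the members. Of 135 genes in 6 lists of skeletal muscle structure, excitation, metabolism and development, 18 were paired with a clone of their own on either design, 9 on the first and 13 on the second, with 4 on both. The sarcomeric myosin heavy chains, skeletal actin and muscle creatine kinase, which define the tissue, had no such clone. Of clones paired with several genes, which were not used, 2 with the first design and 6 with the second held a gene of these lists. Each list is described by counts and medians beside those of all genes of the design. With the first design 7 of the 9 were negative in brown adipose tissue and 2 positive, with a median of -0.12. Over all 3838 genes 60.2% were positive and the median was 0.04. On the second design 10 of the 13 were positive, with a median of 0.17, beside 57.5% of 4075 genes and a median of 0.03. Without the members, which were chosen on these values, 5 of 7 were negative on the first design and 9 of 12 positive on the second. The medians were then -0.05 and 0.14. The counts under other settings keep the members. With no centring of the arrays, which moved the median clone to 0.30 with the first design and -0.36 with the second, both list medians changed sign, to 0.14 and -0.19, with 3 of the 9 genes negative and 3 of the 13 positive. The first-design count also dropped to 4 of 9 negative without pool pair 1, with a median of 0.05, and to 4 with Fob3b in red alone, with a median of 0.075.

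Among genes of the thin filament, the first design read Tpm3, the slow-fibre and cytoskeletal tropomyosin, by 3 clones, at -0.39 for pool pair 1 and 0.15 for pool pair 2. The second design read Tnnt1, the slow troponin T, at -0.02. The thick filament was represented on the second design alone, by Mylpf, the fast-fibre regulatory light chain of myosin. Mylpf had 0.66 with Fob3b in red and 0.73 with Fob3b in green, a mean of 0.69, close to the 0.74 of Tpm2 on the same arrays. In liver Mylpf had a mean of -0.03, with 0.19 and -0.26 in the pool pairs.

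At the Z disc, Actn2, the alpha-actinin of all striated muscle, had 0.47 and 0.13 on the brown adipose arrays of the second design and a mean of 0.30. Its liver mean was 0.20, with all 4 liver arrays positive, so the tissues overlapped. Cryab, the small heat shock protein that guards desmin and titin, had 0.66 and 0.62, a mean of 0.64, against a liver mean of -0.27 with all 4 arrays negative. Pdlim7, a PDZ and LIM protein that binds tropomyosin and alpha-actinin, had 0.31 in brown adipose tissue and 0.35 in liver. On the first design Pdlim5, of the same protein family, had 0.48 for pool pair 1 and -0.49 for pool pair 2. Actn1, the cytoskeletal alpha-actinin, was read there by 3 clones at a mean of -0.01. The clones differed: in pool pair 1 with Fob3b in green they had 1.72, -0.23 and -0.50.

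Of genes for calcium handling, Atp2a2, the calcium pump of slow muscle and many other cells, had 0.0030 with the first design and -0.19 with the second. Hrc, a calcium-binding protein of the sarcoplasmic reticulum, had 0.17 on the second design, against a liver mean of -0.29. Of genes for energy supply, the aldolase gene Aldoa, which brown fat also expresses, had 0.34 on the first design. Pfkm, the muscle phosphofructokinase, had 0.10 on the second and Fabp3, the fatty acid carrier of heart and muscle, had -0.11. The 2 clones of Fabp3 differed, with -0.14 and -0.37 against 0.04 and 0.05 on the same arrays. Mef2d and Mef2a, transcription factors that drive muscle genes among others, had -0.14 for Mef2d with the first design and 0.02 for Mef2a with the second. The pool pairs of Mef2d had -0.41 and 0.13.

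H19 is an imprinted RNA that is abundant in fetal tissues and in muscle. Its 1 clone of the first design gave -0.47 and -0.89 for pool pair 1 and -0.29 and -0.18 for pool pair 2, a mean of -0.46. All 7 of its second-design clones had a positive mean in pool pair 1, between 0.14 and 0.58, and 13 of the 14 clone and array values were positive. In pool pair 1 H19 thus had -0.68 with the first design and 0.31 with the second. The neighbouring imprinted gene Igf2 had -0.16 and 0.03, and Atp2a2 had -0.23 and -0.19. Tpm2, H19, Igf2 and Atp2a2 are the 4 list genes that both designs read, and the designs share their pool RNA by label.

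**Figure D4:**
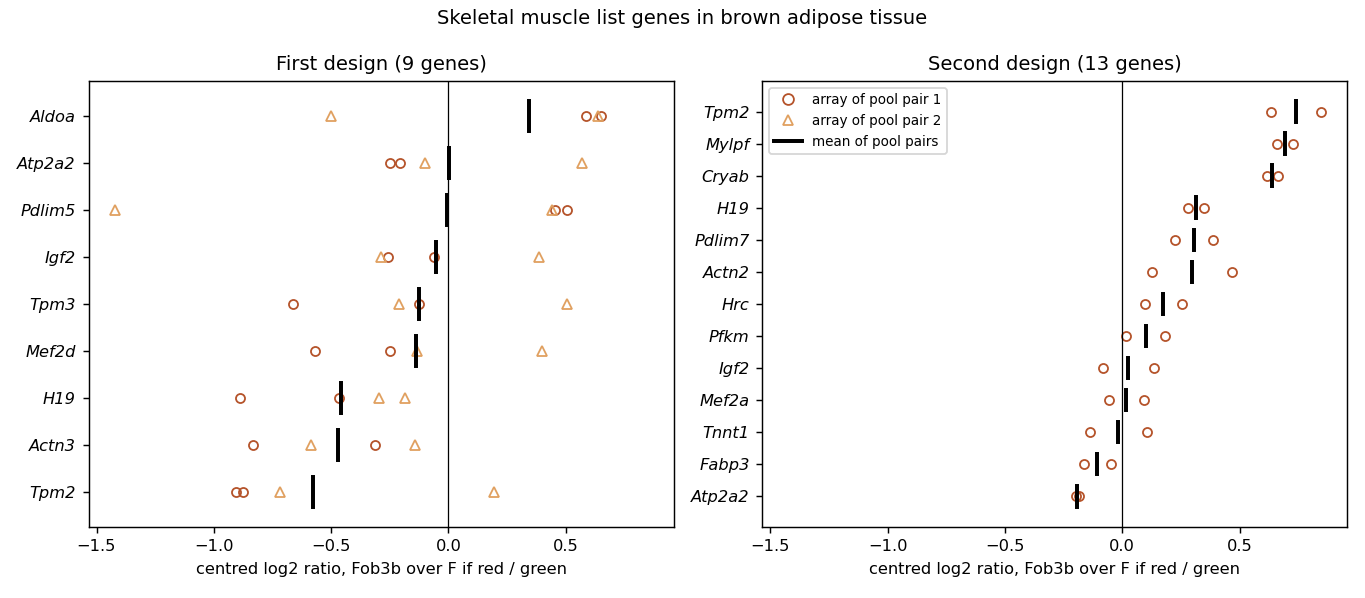
Centred log2 ratio (horizontal axis) in brown adipose tissue of every gene of the skeletal muscle lists with its own clone, for the first design (left) and the second (right). Circles are arrays of pool pair 1, triangles arrays of pool pair 2 and black bars the mean of the pool pairs. Tpm2, Actn3 and H19 are lowest on the first design at -0.58, -0.47 and -0.46, and Tpm2, Mylpf and Cryab highest on the second at 0.74, 0.69 and 0.64.

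The measured muscle genes did not lie on one side: they ran from -0.58 to 0.34 with the first design and from -0.19 to 0.74 with the second. In the means over the pool pairs read, the 4 genes on both designs took opposite sides, though the second design read pool pair 1 alone. The means were -0.58 and 0.74 for Tpm2, -0.46 and 0.31 for H19, -0.05 and 0.03 for Igf2, and 0.0030 and -0.19 for Atp2a2. The first-design means of Igf2 and Atp2a2 average pool pairs of opposite sign, -0.16 and 0.05 for Igf2, and -0.23 and 0.23 for Atp2a2. The second-design arrays of Igf2 were also split, at -0.08 and 0.14. With printing blocks centred the first-design Atp2a2 mean became -0.0053. Within pool pair 1 Atp2a2 took the same side on both designs, at -0.23 and -0.19. The part of muscle carried along with the dissected fat was not tested. In such pooled tissue, fewer cells of a type and less RNA per cell cannot be told apart. Markers of other cells in the depot were set beside them. Smooth muscle genes, which include the calponin gene Cnn1 at 0.20 and the caldesmon gene Cald1 at -0.26, had 3 of 4 negative and a median of -0.08 on the first design, and 2 of 3 negative and a median of -0.0023 on the second. Fibroblast and matrix genes had 6 of 7 negative on the second design with a median of -0.02, from the intermediate filament gene Vim at -0.28 to the fibronectin gene Fn1 at 0.13, and the first design read Pdgfra at -0.21. Under other settings that second-design count ran from 3 negative with the first spot alone to 7 with no centring. Of macrophage and leukocyte genes the first design read Lyz2 at -0.01 and the second Fcer1g at -0.18. Of blood genes the second design read 3, the beta-globin gene Hbb-b1 at 0.01, the heme synthesis gene Alas2 at -0.28 and the red cell anion exchanger gene Slc4a1 at 0.16. The 2 endothelial genes of the first design were positive, with a median of 0.15, and of its 2 nerve genes 1 was on each side. The part of these cells in the values of Tpm2 and Actn3 was not tested.

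The brown fat label itself could hardly be checked. Of 20 brown adipocyte markers 3 had a clone of their own, and Ucp1, the uncoupling protein that defines the tissue, was not among them. Ppargc1b, a coactivator of mitochondrial genes, had 0.20 on the first design. Prdm16, a regulator of brown fat identity, and Elovl3, a fatty acid elongase, had -0.15 and -0.05 on the second. Of genes of adipocytes in general, the second design read 4, of which 3 were positive, with a median of 0.11. They were Slc2a4, the insulin-regulated glucose transporter shared by adipocytes and muscle fibres, at 0.66, Adipor2, an adiponectin receptor, at 0.14, the lipase gene Pnpla2 at 0.08, and Dgat2, an enzyme of triglyceride synthesis, at -0.23. The first design read Pnpla2 at 0.11 and the lipoprotein lipase gene Lpl at -0.25. Of 6 white adipocyte genes on the second design 4 were positive, with a median of 0.02.

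The genes whose first-design pattern was most like that of a member were found by Pearson's r over the 8 direct arrays, which share their pools and hold 2 arrays per pool pair. For Tpm2 these were Vps50 at 0.99, Nkrf and Dnajc9 at 0.95, and Tmem171 and Bmp2k at 0.94, and 64 clones exceeded 0.9. Tpm2 lies in printing block 41, and the 5 lie in blocks 29, 25, 25, 45 and 33. For Actn3, in block 15, they were Rasa2 at 0.93, Fem1a at 0.91, and Slc35a5, Ubr2 and Csf1 at 0.90, 0.90 and 0.89, in blocks 13, 15, 14, 14 and 15. With each block centred, none of the 5 was kept for either member. Slc12a2 then led for Tpm2 at 0.97 and Cdkn2aipnl for Actn3 at 0.93. Tpm2 and Actn3 themselves had an r of -0.40 over these arrays, and of 0.44 with the blocks centred. These correlations describe 8 arrays and carry no test.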

How the data were processed

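The authors deposited, for 10 arrays of each design, a log ratio of the dyes at each of 17280 spots, read here as log2. Neither the log base nor the numerator nor any normalization by the authors is given in the sources used here. A natural logarithm is possible. The 1920 control spots of a design were left out, and the spots of a clone, which lie 160 rows apart in a block of 360, were averaged. Clones were named from the platform annotation, updated by gene ID through the GRCm38.p6 reference table: of 7680 clones, 4749 (first design) and 4855 (second) had 1 gene, while 227 and 274 had several and were not named.

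Arrays were centred on their median clone, ratios were turned by channel label, and dye swaps were averaged, so n is 2 pool pairs. Liver was tested with limma 3.58.1 in R 4.3.3 across all clones, together with brown adipose tissue, two-sided and with Benjamini-Hochberg adjustment at 0.05. The fit was also run on simulated data with independent noise, which held no effect of printing block or dye. Centring, scaling, spot choice, dye orientation, pool pairs and the form of the fit were varied. Member clones, every list gene up to 4 per list, and the 5 most similar genes were named by rule. Genes of the other cell type lists, Slc12a2 and Cdkn2aipnl were named after their values were seen. The members and lists were chosen with earlier results of these data known.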

Additional observations from a re-analysis of the deposited data

Results flagged for a closer look

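Groups of 4 arrays were searched for 1 array far from the rest, in 31 groups of the members and the muscle list genes. A chance rate of about 1 in 20 would need independent arrays of equal spread. These arrays are dye swaps of shared pool pairs with unlike SDs, and the rate over all clones is not given here. The number found is therefore not set against chance. For the first-design Tpm2 clone in brown adipose tissue, the array of pool pair 2 with Fob3b in green had 0.20, with the others between -0.91 and -0.72. Aldoa stood apart on that same array at -0.50, and Pdlim5 on the array of pool pair 2 with Fob3b in red at -1.42. In liver, Actn3 had -1.12 on the first-design array of pool pair 2 with Fob3b in green, where its printing block stood at -0.52. Mef2d stood apart on that same liver array at -0.13, with the others between -0.54 and -0.50. Cryab had -0.48 on the second-design liver array of pool pair 1 with Fob3b in red, with the others between -0.22 and -0.20.

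On the second design every brown adipose array was positive and every liver array negative for Cryab, a difference of 0.91 for brown adipose tissue minus liver, and for Hrc, a difference of 0.46. Both were picked by a search of the muscle list genes, 13 on that design. The share of all clones with such a split is not given here, so nothing is read from it. Neither difference was tested. The brown adipose arrays there were a dye swap of 1 pool pair, and Hrc was as low as 0.10 on them.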

How the results depend on the processing

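Without intensities no filter on signal over background was possible. In brown adipose tissue the sign of each member held under the alternatives run, from -0.89 to -0.26 for Tpm2 and -0.57 to -0.20 for Actn3 with the first design, and from 0.38 to 0.85 for Tpm2 with the second. All alternatives reuse the arrays on which the members were chosen, so the held signs are a description and no independent check. The outer values of Tpm2 are those without pool pair 2 and without pool pair 1, and Actn3 without them had -0.57 and -0.37. With no centring Actn3 became -0.20 and second-design Tpm2 0.38. The muscle list median of the first design (-0.12, 7 genes negative) became 0.14 with no centring (3 negative) and 0.075 with Fob3b in red alone (4 negative), and ran from -0.39 to 0.050 without 1 pool pair (4 to 7 negative). On the second design (0.17, 10 genes positive) it became -0.19 with no centring (3 positive), 0.24 with blocks centred, 0.22 and 0.32 from the first and second spots, and 0.13 with Fob3b in green alone. Among the medians of single lists, 28 over the designs, 13 changed sign with no centring and 2 to 10 under the other settings run on both designs.

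In liver the estimates near 0 changed sign: Actn3 became 0.036 with arrays scaled, 0.036 from the second spot and 0.32 with Fob3b in red alone. First-design Tpm2 became 0.048 from the first spot and 0.55 with Fob3b in green alone, and second-design Tpm2 0.0042 with blocks centred and -0.45 with no centring. Without 1 liver pool pair the range was -0.42 to 0.34 for Actn3, -0.37 to 0.28 for first-design Tpm2 and -0.10 to -0.07 for second-design Tpm2. The lone liver value of the first design is then assumed to vary like brown adipose tissue, and the second design keeps no residual degrees of freedom, so its values carry no test and no count was made. Neither gene passed under any alternative with a test, with limma adjusted p from 0.189 upwards.

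The count of called liver clones, 0 on the first design, became 47 with Fob3b in red alone and 32 to 131 with 1 liver pool pair left out. With the pool number as a replicate block it was 0, and Tpm2 and Actn3 stayed at -0.05 and -0.04. The pool numbers correlated at 0.38 between the tissues, which with 2 pairs does not settle a pairing. The second-design count of 25 became 159 with no centring, 61 among clones with 1 gene, 2 with every array its own replicate, and 0 with blocks centred, arrays scaled, the second spot, either dye orientation alone or the crossed-pool arrays added. Added after seeing the data, a trend in limma's prior variance gave 1 clone and a robust prior 18, both with 0 on the first design. Also added then, centring the blocks turned the r of Tpm2 with Actn3, -0.40, to 0.44. The causes were not tested.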
